A study of Mus musculus with 31 samples.

Results

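The comparison set knockout mice that exercised against knockout mice kept on water, in the right hippocampus. It took all 11 libraries of the deposited count table for this pair, of 31 libraries in the series: 5 labelled knockout and exercise (KO-exercise 1 to 5) and 6 labelled knockout and water (KO-water 1 to 6). All 11 came from C57Bl/6 J mice lacking the serotonin transporter 5-HTT. The series applied exercise for 4 weeks. Age, sex and the form of the exercise are not given in the labels used here. The labels call the libraries biological replicates, and each was taken as 1 animal. Wild-type mice of the same strain under exercise (WT-exercise, n = 5) and water (WT-water, n = 7) served for reference. Mice of both genotypes were given corticosterone, the main stress hormone of rodents, for 4 weeks (KO-corticosterone, n = 2, and WT-corticosterone, n = 6). They are shown for 3 microRNAs, and KO-corticosterone means are set beside the called microRNAs. The design asks what exercise does to hippocampal small RNA when the transporter is missing. Since no messenger RNA was counted, the deletion itself could not be checked.

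MicroRNAs are short RNAs cut from hairpin precursors, and each hairpin can give a mature strand from either arm (-5p and -3p). A mature strand guides Argonaute proteins to messenger RNAs, which it recognises chiefly through its seed, and the targeted messages are translated less or decay sooner. The serotonin transporter clears serotonin from the extracellular space, so mice without it live with altered serotonin signalling. In rodents running is known to increase the birth of neurons in the dentate gyrus of the hippocampus.

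Total microRNA counts were 1880805 ± 774789 per library in KO-exercise (n = 5, range 1011285 to 3116879) and 2206397 ± 649323 in KO-water (SD, n = 6, range 1277046 to 3254739). The difference was not detected (exact two-sided permutation p = 0.461). Nor was one detected in the number of microRNAs with a count (p = 0.567, exact) or in the share of counts taken by miR-124-3p, the abundant neuronal microRNA (24.6% ± 2.17, n = 5, against 24.3% ± 1.23, n = 6, exact permutation p = 0.734). The 5 most abundant microRNAs of each library held 42.6% ± 2.16 of counts in KO-exercise and 45.7% ± 1.03 in KO-water (exact permutation p = 0.0216, Benjamini-Hochberg 0.0866 over 4 measures, smallest possible p 0.00216). The make-up of the table touches the results. The KO-water libraries fell apart into 2 sets that the deposited tables also separate: KO-water 1, 2 and 5 (set A) are absent from the table of KO-water against WT-water, and KO-water 3, 4 and 6 (set B) are columns of it. KO-exercise 4 is a column of that table too, although its label reads knockout and exercise. Between set B and set A edgeR called 290 of 532 microRNAs (54.5%), 28.9% higher and 25.6% lower in set B, so the exercise libraries were compared with all 6 KO-water libraries and with each set.

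The mature sequences of 11 microRNAs on which the results turn are printed first, from the RefSeq table of GRCm38.p6, 5′ to 3′, with the seed (bases 2 to 8) in capitals. The first pair is shown because its members lie on opposite strands of the same locus, the next because it marks a Hox cluster, the 3 after that because they share a seed and all had lower means with exercise, and the next pair because it shares a seed and a primary transcript. The last 3 are further microRNAs that rose.
miR-126b-5p: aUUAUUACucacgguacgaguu
miR-126a-3p: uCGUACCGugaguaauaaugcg
miR-196b-5p: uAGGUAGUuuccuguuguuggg
miR-99a-5p: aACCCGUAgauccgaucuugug
miR-100-5p: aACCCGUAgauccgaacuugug
miR-99b-5p: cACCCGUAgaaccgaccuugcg
miR-132-3p: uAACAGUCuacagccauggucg
miR-212-3p: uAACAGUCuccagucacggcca
miR-146a-5p: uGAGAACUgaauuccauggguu
miR-335-5p: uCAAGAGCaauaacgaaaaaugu
miR-3059-5p: uUUCCUCUcugccccauagggu

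Exercise in the knockout was accompanied by higher levels of 16 microRNAs and lower levels of 5. Among those that rose were miR-132-3p, which neuronal activity induces through CREB, miR-146a-5p, which restrains Toll-like receptor signalling, and miR-30c-5p and miR-26b-5p, members of broadly expressed families. Among those that fell were miR-99a-5p and miR-100-5p, sister microRNAs known for lowering mTOR. For all 21 the KO-corticosterone mean lay on the same side of the KO-water mean as the KO-exercise mean. Whether these levels belong to exercise in particular was not tested. The 21 calls were 4.02% of 523 microRNAs tested (edgeR quasi-likelihood, Benjamini-Hochberg adjusted p below 0.05), with 3.06% called higher and 0.956% lower, and 86 had an unadjusted p below 0.05. The direction split depended on the processing: 15 were higher and 9 lower with DESeq2 size factors in edgeR, 19 and 19 with DESeq2 itself, and 14 and 10 among microRNAs with a mean of at least 10 CPM. Of the 21, 11 changed by over 2-fold. The median log2 fold change of all tested microRNAs was -0.01. For all 21 the KO-exercise and KO-water values did not overlap, which held for 30 (5.74%) of all tested. The others without overlap, named after their values were seen, were miR-7a-1-3p, miR-1839-5p, miR-92b-3p, miR-2137, miR-31-5p, miR-24-3p, miR-30b-5p, miR-23b-3p and miR-17-5p. Without KO-exercise 4 edgeR called 13. Within the 7 libraries whose sample code starts with G it called 3 (miR-126b-5p, miR-122b-3p and miR-196b-5p), and within the 4 that start with H it called 1 (miR-126b-5p). The meaning of the letters is not stated.

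The clearest differences were in 3 microRNAs that were nearly absent from the water libraries. MiR-126b-5p is read from the strand opposite miR-126a, inside Egfl7, a gene of endothelial cells (GRCm38 chr2:26591399-26591420, minus strand). It had 575 counts over the KO-exercise libraries, from 45 in KO-exercise 2 to 159 in KO-exercise 5, against 1 count in KO-water 3 and 0 in the other 5. Scaled to library size, it ranged from 43.9 CPM in KO-exercise 2 to 80.9 CPM in KO-exercise 1. The ratio of the pooled rates was 771 (95% interval 138 to 30505, counting error only), and adjusted p was 7.04e-08 by edgeR. It was the only microRNA called under all 25 alternative settings.

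MiR-196b-5p is encoded in the Hoxa cluster (GRCm38 chr6:52230129-52230150, an exon of Hoxa9 by the annotation). It had 10, 11, 26, 34 and 30 counts in KO-exercise 1 to 5 and a single count over the KO-water libraries, in KO-water 1, a ratio of rates of 149 (26.2 to 5931). Its adjusted p was 2.92e-05 by edgeR. MiR-122b-3p, from a hairpin named after the liver microRNA miR-122, had 1078 counts over the KO-exercise libraries (105 to 300 each) against 25 over the KO-water libraries (at most 11 each). The ratio was 57.8 (39.0 to 89.7), with an adjusted p of 2.92e-05 by edgeR. Every KO-exercise library was above every KO-water library for all 3.

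Related strands of these hairpins did not show differences of that size. MiR-126a-3p, the endothelial microRNA on the other strand, stood at 7145 ± 834 CPM in KO-exercise (CPM, counts scaled to library size, n = 5) and 8661 ± 4227 in KO-water (SD, n = 6), a log2 fold change of -0.28 ± 0.31 (SE, adjusted p 0.707 by edgeR). Bases 1 to 19 of miR-126b-5p are complementary to miR-126a-3p, as the printed pair shows. No source used here states whether counting used strand, so the values of miR-126b-5p are uncertain to that degree. For miR-122b-3p neither a sequence nor a locus was at hand, so whether it carries the same uncertainty was not checked. In the KO-water libraries, where miR-126b-5p had 1 count in all, miR-126a-3p ranged from 4447 to 14088 CPM. MiR-122-5p had 88 counts in KO-exercise and 49 in KO-water, a ratio of 2.41 (1.68 to 3.49). MiR-196b-5p differs from its paralog miR-196a-5p at 1 base, so reads of the pair could be split by the counting. Few were assigned to miR-196a-5p, which had 1 count in KO-exercise 1, 1 in KO-exercise 4 and 0 in every KO-water library.

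Other treated groups showed the same 3 microRNAs. KO-corticosterone 1 and 2 had 242 and 73 counts of miR-126b-5p, 441 and 128 of miR-122b-3p, and 31 and 28 of miR-196b-5p. WT-exercise held 668 counts of miR-126b-5p against 2 in WT-water, 1114 against 42 of miR-122b-3p, and 100 against 0 of miR-196b-5p. In both genotypes the water libraries were low and every exercise library had counts. Other called microRNAs were also near their KO-exercise level in KO-corticosterone. MiR-99a-5p had means of 6600 CPM in KO-corticosterone, 4978 in KO-exercise and 15309 in KO-water, scaled over all 31 libraries. In the same order miR-146a-5p stood at 195, 200 and 80.2, miR-30c-5p at 17717, 18080 and 11213, and miR-132-3p at 3536, 4117 and 2447.

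**Figure D1:**
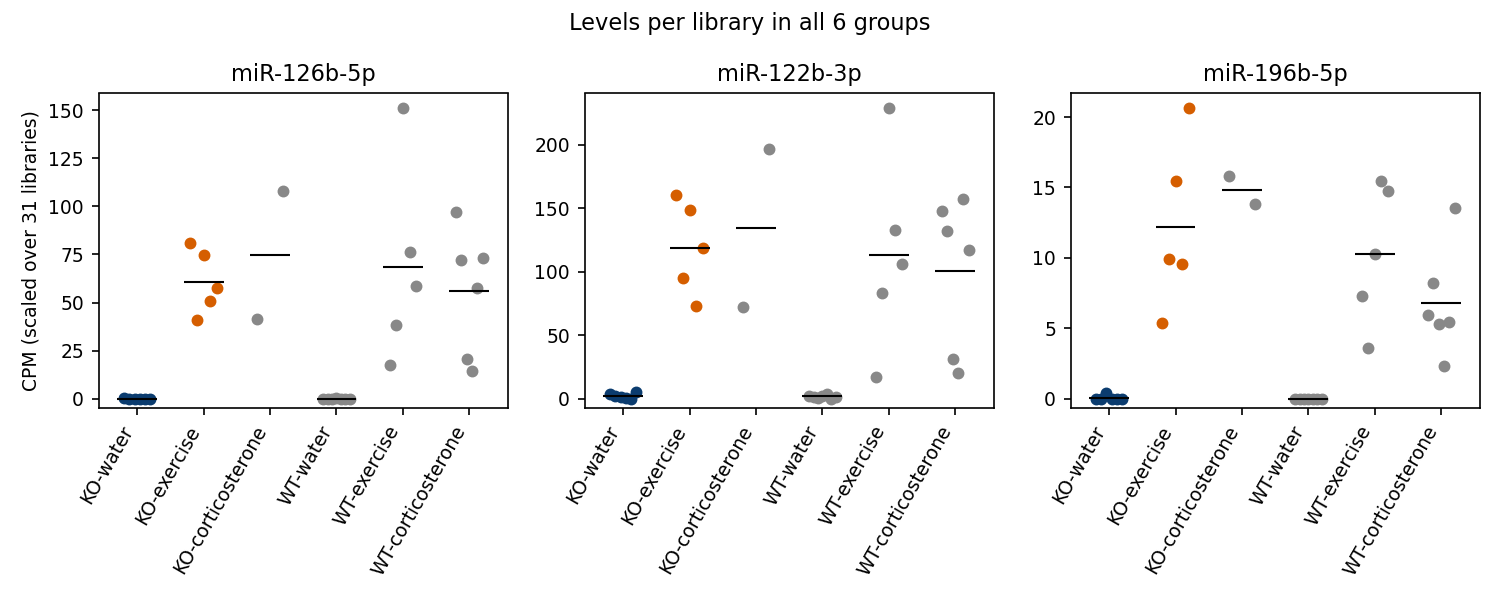
Level of 3 microRNAs in every library of the 6 groups (vertical axis: CPM scaled over all 31 libraries; points: libraries; line: group mean). KO-water and WT-water points lie at or near 0, while all 5 KO-exercise libraries carry each microRNA.

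MiR-132-3p and miR-212-3p come from one primary transcript and share the seed AACAGUC. MiR-132-3p (chr11:75173723-75173744, intron of the non-coding 1700016P03Rik) measured 3679, 4029, 4799, 4582 and 3538 CPM in KO-exercise 1 to 5. In KO-water it ranged from 1876 to 3260 CPM with a median of 2213. The lowest exercise library was above the highest water library, which was KO-water 5. The log2 fold change was 0.80 ± 0.17 (SE, 1.74-fold, adjusted p 0.0138 by edgeR). The call was lost without KO-exercise 2, 3 or 4 or KO-water 1, with log2 fold changes from 0.67 to 0.91 over all single-library omissions. MiR-212-3p stood at 1532 CPM against 1134, a log2 fold change of 0.43 ± 0.16 that was not called (adjusted p 0.213), and the other arm, miR-132-5p, at 0.07. By Pearson correlation of log2 CPM over the 11 libraries, the 5 microRNAs whose pattern was most like that of miR-132-3p were miR-669a-3p, miR-212-3p, let-7d-3p, miR-196b-5p and miR-335-5p, with coefficients from 0.885 to 0.917. Those libraries share the split into 2 groups.

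A second activity-linked microRNA, miR-335-5p, is hosted in an intron of the imprinted gene Mest (chr6:30741314-30741336). It measured 1221, 1498, 1443, 1169 and 1466 CPM with exercise, and 627 to 960 CPM (median 755) with water. The groups did not overlap, and the log2 fold change was 0.80 ± 0.15 (adjusted p 0.00940 by edgeR). Its other arm, miR-335-3p, was at 0.55 ± 0.20 and was not called. Of 22 microRNAs listed as following neuronal activity or acting at synapses, these 2 rose and none fell (9.09% called, median log2 fold change 0.12), beside 4.02% called and a median of -0.01 over all tested. Among 27 neuron-enriched microRNAs none was called, and their median was 0.04. MiR-124-3p had a log2 fold change of 0.00 ± 0.14, miR-138-5p of -0.23 ± 0.24 and miR-9-5p of 0.34 ± 0.27.

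MiR-146a-5p, a target of NF-kappaB that dampens innate immune signalling, measured 214, 211, 165, 215 and 200 CPM in KO-exercise 1 to 5. In KO-water it measured 102.3, 103.3 and 104.3 CPM in set A and 60.1, 52.2 and 39.9 CPM in set B. Exercise libraries were above both sets, and set B was below set A. The log2 fold change was 1.38 ± 0.26 against all (adjusted p 0.0101 by edgeR), 0.91 ± 0.17 against set A and 1.89 ± 0.20 against set B. MiR-142a-3p, the hematopoietic microRNA, rose by 0.59 ± 0.15 (121 ± 17.7 CPM, n = 5, against 79.9 ± 5.43, n = 6, adjusted p 0.0443 by edgeR), and lost its call in 20 of 25 alternative settings, including against set A (adjusted p 0.0661). These were the 2 that rose among 10 tested microglia and immune cell microRNAs (20% called, beside 4.02% over all tested). None of the 10 fell, and the median of the list was -0.06. In bulk tissue, a change in the number of cells of a type and in RNA per cell cannot be told apart. The 4 markers of microglia and immune cells were miR-142a-3p, miR-223-3p, miR-146a-5p and miR-150-5p. Their summed level ranged from 3780 to 6529 CPM in KO-exercise, 2448 to 3238 in set A and 7013 to 7860 in set B. Most of the sum was miR-150-5p, with a KO-exercise mean of 4494 CPM. The means of miR-223-3p, miR-146a-5p and miR-142a-3p there were 229, 200 and 120 CPM. The order of the sum is therefore mainly that of miR-150-5p, and miR-146a-5p was lowest in set B. The part of cell content in these results was not tested.

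The members with the seed ACCCGUA were lower. MiR-99a-5p (chr16:77598940-77598961, intron of Mir99ahg) measured 7552, 5100, 2857, 5507 and 4131 CPM in KO-exercise 1 to 5. In KO-water it ranged from 9093 to 22033 CPM with a median of 14940. All exercise libraries were below all water libraries, and the log2 fold change was -1.57 ± 0.27 (adjusted p 0.00710 by edgeR). MiR-100-5p (chr9:41531437-41531458, intron of 3110039I08Rik) measured 1433, 1124, 531, 1185 and 917 CPM with exercise and 2035 to 3621 CPM (median 2696) with water. Again no value overlapped, at a log2 fold change of -1.39 ± 0.24 (adjusted p 0.00710). These sequences differ at 1 base of 22, so the counting could have divided reads between them. MiR-99b-5p differs from miR-99a-5p at 4 bases and was not called against all 6 (-0.71 ± 0.32, adjusted p 0.298). KO-exercise 3 had the lowest value of both called members. Their other arms moved little: miR-99a-3p was at 0.22 ± 0.32 and miR-100-3p at 0.09 ± 0.33.

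The other 3 that fell came from different families. MiR-103-3p, made from introns of the pantothenate kinase genes Pank2 and Pank3, was at 7540 ± 520 CPM (n = 5) against 12903 ± 2577 (SD, n = 6; log2 fold change -0.78 ± 0.16, adjusted p 0.0143 by edgeR). MiR-107-3p, which shares its seed, was at -0.44 ± 0.15 and was not called. MiR-93-3p, the lesser arm of a hairpin in Mcm7, measured 17.1 to 21.3 CPM with exercise and 31.8 to 53.9 with water, a log2 fold change of -1.12 ± 0.22 (adjusted p 0.0102). MiR-150-3p, the lesser arm of the lymphocyte microRNA miR-150, was at 10.1 to 20.2 CPM against 21.5 to 39.9 (-1.04 ± 0.25, adjusted p 0.0313). The dominant arms, miR-93-5p (0.24 ± 0.15) and miR-150-5p (-0.04 ± 0.36), were not called.

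Of the remaining rises, the largest was in miR-3059-5p, from an intron of the glycosyltransferase gene Mgat4c (chr10:101772704-101772725). It measured 52.5, 58.6, 69.5, 51.7 and 74.0 CPM in KO-exercise 1 to 5, against 19.2, 20.5 and 27.8 in set A and 6.56, 8.15 and 4.59 in set B. Exercise libraries exceeded both sets, at a log2 fold change of 2.05 ± 0.40 (adjusted p 0.0102 by edgeR). MiR-130a-3p, a microRNA linked to blood vessel growth, was nearly level among exercise libraries (1752 to 1871 CPM) and ranged from 374 to 1347 CPM with water (1.18 ± 0.25, adjusted p 0.0152). Its seed partners miR-130b-3p (0.41 ± 0.38) and miR-301a-3p (0.23 ± 0.22) were not called.

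The let-7 family, which represses growth and cell-cycle genes, contributed 2 passenger strands. Let-7b-3p measured 255 to 466.1 CPM with exercise and 109 to 206 with water (1.04 ± 0.22, adjusted p 0.0143 by edgeR). Let-7d-3p measured 328 to 481 CPM against 177 to 235 (0.94 ± 0.17, adjusted p 0.00710). The other tested microRNAs with the seed of let-7b-3p, UAUACAA, all had positive values without a call: miR-98-3p 1.04, let-7f-1-3p 0.66, let-7c-2-3p 0.63 and let-7a-1-3p 0.62. The guide strand let-7d-5p was at 0.03 ± 0.19, let-7c-5p at 0.64 ± 0.19 (adjusted p 0.105) and let-7f-5p at 0.14 ± 0.15. Over the 22 tested let-7 and miR-98 strands 2 rose, none fell and 17 were positive, with a median of 0.19 (9.09% called). Over all 523 tested 4.02% were called and 254 were positive, with a median of -0.01.

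MiR-30c-5p was the most abundant microRNA called. It measured 14501, 20775, 16737, 20866 and 18134 CPM in KO-exercise 1 to 5 and 9651 to 12108 CPM with water, without overlap (0.75 ± 0.15, adjusted p 0.0102 by edgeR). MiR-30a-5p (0.25 ± 0.16), miR-30e-5p (0.34 ± 0.14) and miR-384-5p (0.42 ± 0.17), which share its seed, were not called. MiR-26b-5p, from an intron of the phosphatase gene Ctdsp1, rose by 0.84 ± 0.18, miR-669a-3p by 0.90 ± 0.20, miR-873a-5p, hosted by Lingo2, by 0.78 ± 0.18 and miR-324-3p by 0.68 ± 0.14, with adjusted p from 0.0134 to 0.0225 by edgeR. Both arms were tested for 14 of the 21 hairpins: the other arm was called for 0 of them and had the same sign for 7.

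**Figure D2:**
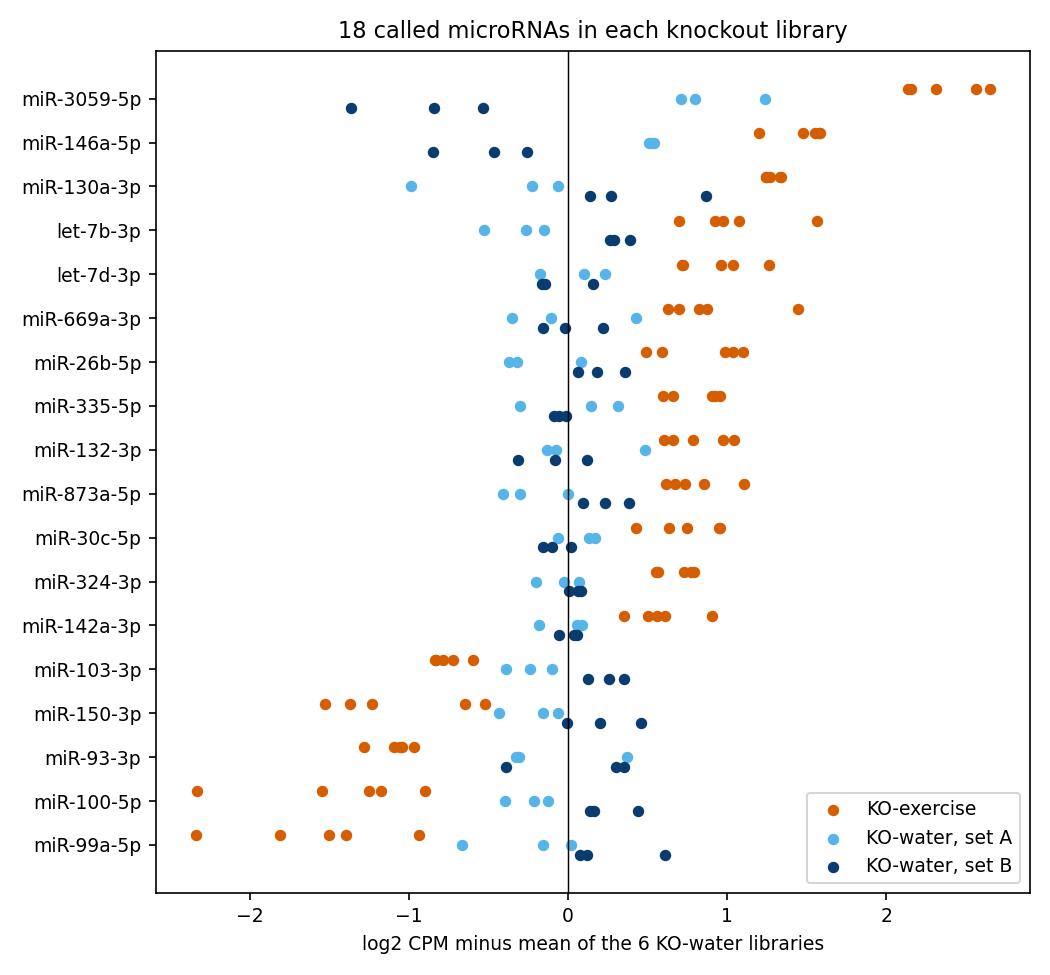
The 18 called microRNAs other than the 3 near-absent ones, in each knockout library (horizontal axis: log2 CPM minus the mean of the 6 KO-water libraries; orange: KO-exercise; light blue: KO-water set A; dark blue: set B). No orange point lies within the range of the blue points of its row.

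Lists for other cell types are small, so 4.02% called over all tested would put less than 1 call in each. None was called among 6 oligodendrocyte microRNAs (median -0.29), 5 red blood cell microRNAs (-0.31), 3 muscle microRNAs (0.30), 8 choroid plexus and ciliated cell microRNAs (-0.28) or 6 epithelial and sensory microRNAs (0.50). Of 9 vessel microRNAs 1 rose, miR-126b-5p (median 0.14). MiR-145a-5p of vessel smooth muscle was at -0.16 ± 0.23. MiR-1a-3p (0.18 ± 0.15) and miR-133a-3p (0.30 ± 0.22) of muscle, miR-204-5p of choroid plexus (-0.42 ± 0.33), miR-34c-5p of ciliated cells (-0.31 ± 0.31) and miR-200a-3p (0.45 ± 0.38) and miR-200b-3p (0.55 ± 0.42) of epithelia were not called. Both tested Hox-cluster microRNAs were positive, miR-196b-5p with a call and miR-10a-5p at 0.28 ± 0.43.

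MicroRNAs tied to serotonin and stress signalling in the literature were mostly without calls against all 6 water libraries. So were the tested microRNAs at large, of which 4.02% were called, so the lists below are not set apart by this. Of 8 reported to target the transporter mRNA itself none was called (median 0.20), with miR-16-5p at 0.53 ± 0.34 and miR-135a-5p at 0.53 ± 0.31. Of 8 from introns of the serotonin receptor gene Htr2c none was called (median -0.36), with miR-764-3p at -0.39 ± 0.21 and miR-1298-5p at -1.79 ± 1.16. Of 8 reported to target the glucocorticoid receptor mRNA miR-142a-3p rose (median -0.27), while miR-18a-5p was at -0.26 ± 0.18 and miR-124-3p is given above. MiR-34a-5p was at 0.31 ± 0.16. In the imprinted Dlk1-Dio3 locus no call was made among 56 tested microRNAs of the miR-379/miR-410 cluster or 23 of the miR-127/miR-433 group (medians -0.01 and -0.11). MiR-376a-3p was at -0.34 ± 0.17, miR-376b-3p at -0.11 ± 0.18, miR-434-3p at 0.04 ± 0.48 and miR-136-5p at -0.07 ± 0.24. Among 11 of the miR-17/92 and related clusters none was called (median 0.01), with miR-19b-3p at -0.33 ± 0.20 and miR-106b-5p at 0.01 ± 0.44. Of 16 miR-29 and miR-30 family members miR-30c-5p rose (median 0.25), while miR-29a-3p was at -0.28 ± 0.32 and miR-29b-3p at -0.48 ± 0.31.

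The choice of water libraries changed the picture for many microRNAs. Against set A, 118 of 544 tested were called (21.7%), 57 higher (10.5%) and 61 lower (11.2%). Against set B, 177 of 540 were called (32.8%), 86 higher (15.9%) and 91 lower (16.9%). Without scaling factors 63.8% of the calls against set B were higher, against 48.6% with them. Of the 21 microRNAs called against all 6, 20 were called against set A and 21 against set B, all with the sign they had against all 6. Members of several lists went both ways: in the miR-379/miR-410 cluster of 56, exercise libraries were called higher for 3 and lower for 11 against set A, and higher for 14 and lower for 8 against set B. The 10 tested for microglia and blood immune cells gave 5 rises and no fall against set A, and 2 rises and 4 falls against set B. Of 8 reported to target the transporter mRNA, 4 rose and 1 fell against set A and 2 fell against set B. These comparisons share the KO-exercise libraries. Over 283 microRNAs called between the sets, on an axis from 0 at the mean of set A to 1 at the mean of set B, KO-exercise 1 to 5 lay at 0.158, 0.745, 0.327, 0.630 and 0.423. The median SD of log2 CPM was 0.34 in KO-exercise, 0.52 over the 6 KO-water libraries, 0.25 in set A and 0.21 in set B.

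MiR-219a-5p, which promotes oligodendrocyte differentiation, measured 637, 281, 283, 178.5 and 183.8 CPM in KO-exercise 1 to 5, against 640, 678 and 876 in set A and 63.1, 39.9 and 56.5 in set B. Exercise libraries were below the former and above the latter. The log2 fold change was -1.27 ± 0.36 against set A (adjusted p 0.0285 by edgeR) and 2.45 ± 0.42 against set B (adjusted p 0.00185). MiR-338-3p, another oligodendrocyte microRNA, fell against set A (-1.14 ± 0.31) and was at 0.67 ± 0.32 against set B. The summed level of miR-219a-5p and miR-338-3p ranged from 1200 to 3584 CPM in KO-exercise, 3872 to 5296 in set A and 754 to 1261 in set B, and the part of oligodendrocyte content was not tested.

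The reverse order held for miR-342-3p, hosted by Evl, and miR-218-5p, a neuronal microRNA hosted by Slit2 and Slit3. MiR-342-3p measured 4039, 9533, 4881, 7786 and 5128 CPM with exercise, above 2215 to 2818 in set A and below 10426 to 13501 in set B. It rose by 1.28 ± 0.27 on the log2 scale against the former (adjusted p 0.00925 by edgeR) and fell by 1.05 ± 0.26 against the latter (adjusted p 0.00976). MiR-218-5p was at 0.75 ± 0.18 and -0.84 ± 0.18, both called. MiR-150-5p was at 0.88 ± 0.22 and -0.70 ± 0.20, also called both ways. MiR-1298-5p, of the Htr2c intron, was at -2.77 ± 0.75 (adjusted p 0.0256) and 2.77 ± 0.56 (adjusted p 0.00374). In set A it measured 995.6 CPM in KO-water 5 and 70.4 and 166 in the other libraries. Without KO-water 5 the value against set A was -1.01 ± 0.54 and not called (adjusted p 0.224), and the call was also lost without KO-exercise 1, 2 or 4 (adjusted p 0.0231 to 0.224 over the 8 omissions, by edgeR). The summed level of 5 choroid plexus and ciliated cell microRNAs ranged from 6307 to 7712 CPM in KO-exercise, 6518 to 20556 in set A and 7404 to 8051 in set B, and its part was not tested. Against all 6 water libraries none of these 4 was called, nor was miR-219a-5p.

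A further set of microRNAs differed from set A. Those also given against set B in this paragraph did not differ detectably from it, and the others are given against set A only. MiR-16-5p rose by 1.29 ± 0.26 against set A, miR-135a-5p by 1.24 ± 0.21, miR-152-3p, hosted by Copz2, by 1.79 ± 0.33, miR-194-5p by 1.64 ± 0.24 and miR-28a-3p by 1.82 ± 0.39, all with adjusted p of 0.0102 or less by edgeR. Against set B their log2 fold changes lay between -0.34 and -0.06. The erythroid miR-451a fell against set A (-1.35 ± 0.26) and was at -0.02 ± 0.26 against set B. The sum of 3 red blood cell microRNAs was 380 to 926 CPM in KO-exercise, 1195 to 1627 in set A and 503 to 635 in set B. MiR-22-3p (-1.46 ± 0.24), miR-22-5p (-1.28 ± 0.25), miR-382-3p (-1.41 ± 0.27), let-7j (-1.32 ± 0.20), let-7i-3p (-1.30 ± 0.39), miR-29c-3p (-1.29 ± 0.34), miR-331-3p (-1.56 ± 0.30) and miR-3084-3p (-1.44 ± 0.41) fell against set A, as did miR-501-5p (-1.99 ± 0.40). MiR-760-3p (1.39 ± 0.37), miR-1188-5p (1.71 ± 0.53) and miR-122-5p (1.59 ± 0.52) rose. Of these, some passed the filter on low counts here and not against all 6 water libraries: miR-501-5p (27 counts over KO-exercise and 86 over set A), miR-1188-5p (54 and 13) and miR-122-5p (88 and 26). Some omission of 1 library ended the call of miR-760-3p, miR-1188-5p, miR-122-5p, miR-3084-3p, let-7i-3p and miR-29c-3p.

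Falls against set B outside the 21 included miR-193b-5p (-2.16 ± 0.47), miR-192-5p (-1.55 ± 0.23), miR-2137 (-1.53 ± 0.45), miR-873a-3p (-1.37 ± 0.25), miR-6240 (-1.35 ± 0.22), miR-145b (-1.33 ± 0.29), miR-532-5p (-1.32 ± 0.21) and miR-935 (-1.15 ± 0.20). Beside miR-1298-5p and miR-219a-5p, given above, rises included miR-450a-5p (2.66 ± 0.71), miR-677-5p and miR-677-3p (2.42 ± 0.66 each), miR-491-3p (2.31 ± 0.49), let-7f-2-3p (2.05 ± 0.44) and miR-3535 (1.96 ± 0.66). Both arms of miR-677 overlap a small nucleolar RNA, as does miR-3535 in the nucleolin gene Ncl. So do miR-3084-3p, given above, and miR-5121, given below. MiR-450a-5p had 6 counts over set B and miR-491-3p 5, so those fitted values rest on few reads. MiR-193b-5p had 15 counts over KO-exercise and 38 over set B, and was not among the 523 tested against all 6. Some omission of 1 library ended the call of miR-677-5p, miR-677-3p, miR-3535 and miR-2137. The endothelial miR-126a-3p fell by 0.88 ± 0.15 against set B and was at 0.46 ± 0.17 against set A (adjusted p 0.0686). The sum of 3 vessel microRNAs was 10228 to 14363 CPM in KO-exercise, 9424 to 12897 in set A and 18581 to 20880 in set B, and its part was not tested.

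**Figure D3:**
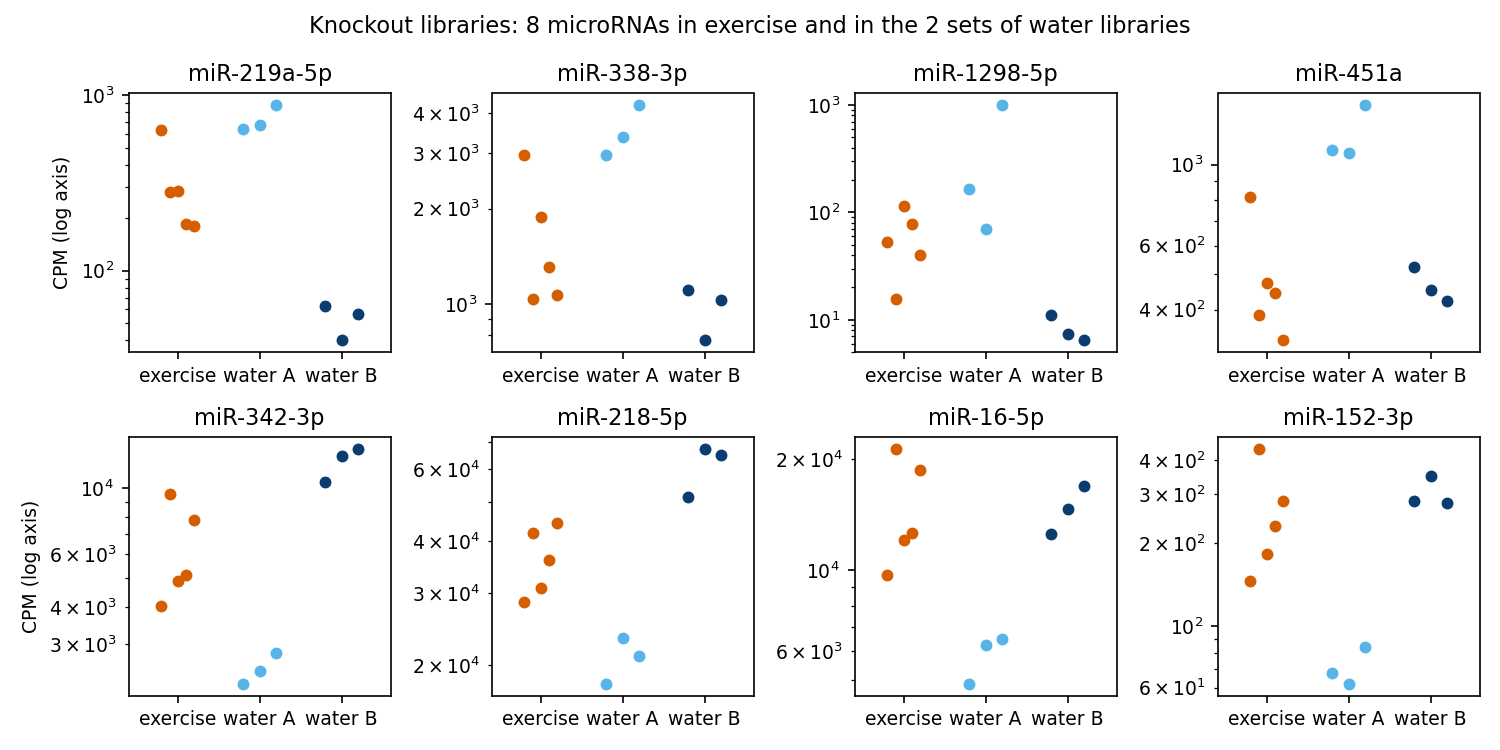
Level of 8 microRNAs in the knockout libraries (vertical axis: CPM, log scale; points: libraries; water A: KO-water 1, 2 and 5; water B: KO-water 3, 4 and 6). For miR-219a-5p, miR-342-3p and miR-218-5p the exercise libraries lie between the sets.

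Among KO-exercise libraries, abundant microRNAs with the widest spread included miR-1298-5p (15.6 to 114 CPM), miR-5121 (309 to 1333 CPM), miR-219a-5p, miR-3535 (740 to 2864 CPM), miR-29c-3p (2272 to 7561 CPM), miR-223-3p of myeloid cells (142 to 427 CPM), miR-337-3p (376 to 1113 CPM) and miR-361-5p (170.9 to 569 CPM). KO-exercise 1 was the highest for miR-219a-5p, miR-3535, miR-29c-3p, miR-337-3p and miR-361-5p, and KO-exercise 2 was the lowest for the last 3. In KO-water, miR-674-3p was at 10.98 CPM in KO-water 2 and at 129 to 218 CPM in the others, while miR-350-3p (62.8 to 406 CPM) and miR-434-3p (1628 to 9739 CPM) differed by set.

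In wild type, exercise against water gave 180 calls among 553 tested (32.5%), 110 higher (19.9%) and 70 lower (12.7%), and 78 higher with 85 lower when no scaling factors were used. Of the 21 knockout calls, 20 were tested in wild type, all with the same sign, and 16 were called there in the same direction (76.2% of the knockout calls, 8.89% of the wild-type calls). The 4 that were not called in wild type were miR-99a-5p (-0.50 ± 0.37), miR-100-5p (-0.52 ± 0.23), miR-103-3p (-0.17 ± 0.13) and miR-146a-5p (0.40 ± 0.24). MiR-132-3p was at 1.13 ± 0.14 in wild type and at 0.80 ± 0.17 in the knockout. MiR-212-3p rose in wild type (0.75 ± 0.12).

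The test of the difference itself, the interaction of genotype and exercise, called 0 of 571 microRNAs (edgeR, lowest adjusted p 0.190, with 101 at an unadjusted p below 0.05, and 0 by limma-voom). The knockout effect minus the wild-type effect was -0.40 ± 0.21 for miR-132-3p, -0.97 ± 0.34 for miR-100-5p, 0.91 ± 0.36 for miR-146a-5p and -0.70 ± 0.21 for miR-103-3p (SE, adjusted p 0.190 to 0.311), which does not show that the genotypes respond alike. The result depended on the water libraries. With set A alone 0 of 601 were called (18 at an unadjusted p below 0.05, lowest adjusted p 0.995), and with set B alone 252 of 596 (42.3%), with a positive difference for 20.6% of those tested and a negative one for 21.6%. For miR-342-3p the difference was -0.29 ± 0.48 with set A and -2.60 ± 0.50 with set B, and for miR-192-5p -0.38 ± 0.38 and -2.35 ± 0.38.

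Fold changes of the 2 genotypes were set side by side across microRNAs, which share libraries and are not independent. Pearson's r was 0.656 and Spearman's rho 0.393 with all KO-water libraries (520 microRNAs), 0.893 and 0.850 with set A (520), and 0.0507 and -0.299 with set B (518). Of the 118 calls against set A, 81 were called in the same direction in wild type (68.6% of these, 45.0% of the wild-type calls) and 0 in the opposite one. Of the 177 against set B, 24 were called in the same direction (13.6%, and 13.3% of the wild-type calls) and 36 in the opposite one (20.3%).

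**Figure D4:**
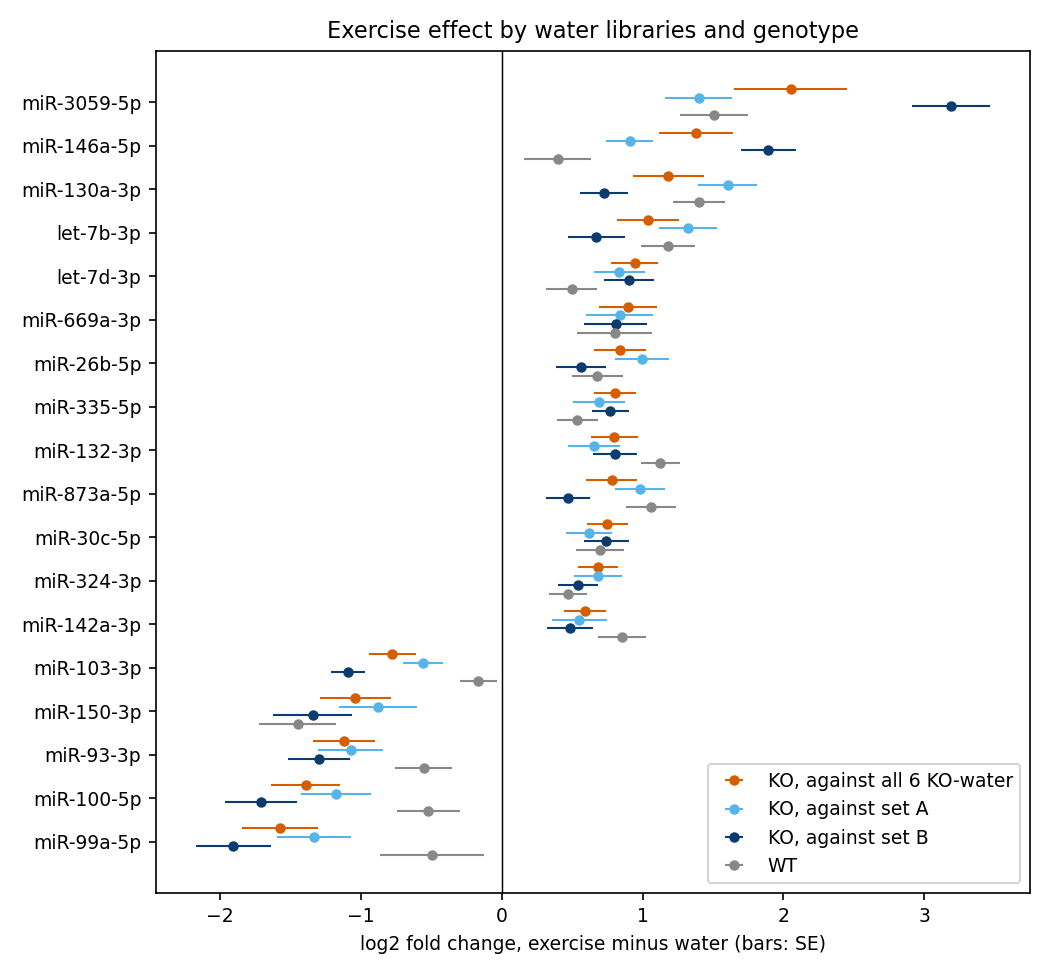
Log2 fold change of exercise over water for 18 called microRNAs (points: edgeR estimates; bars: SE; orange: knockout against all 6 KO-water; light blue: against set A; dark blue: against set B; grey: wild type). All 4 estimates of each row lie on the same side of 0.

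**Figure D5:**
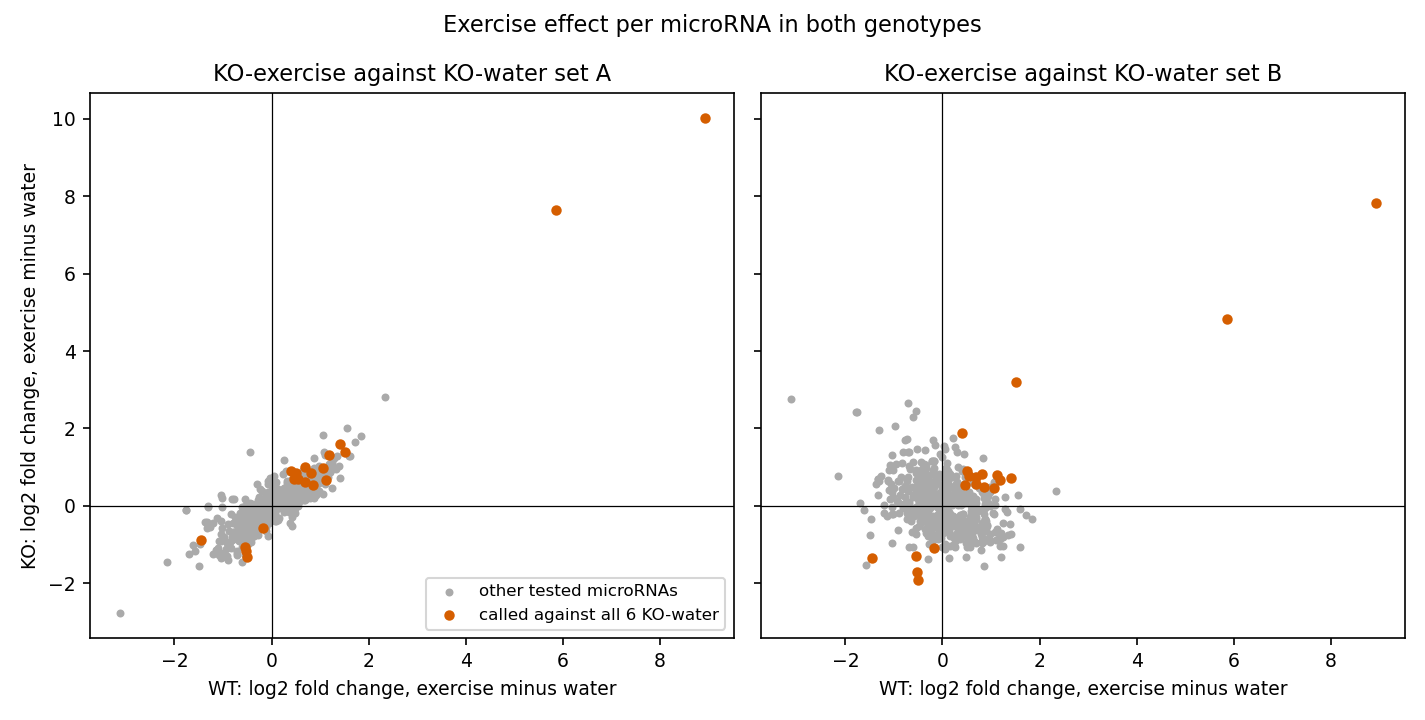
Log2 fold change of exercise over water in wild type (horizontal axis) and knockout (vertical axis) for each microRNA tested in both, against set A (left) and set B (right). Points follow the rising diagonal on the left (Spearman's rho 0.850) and not on the right (-0.299). The orange points farthest to the right, miR-126b-5p and miR-122b-3p, rest on few or no water counts, so their fitted values are no measure of size.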

How the data were processed

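Small RNA of 31 right hippocampi was sequenced on an Ion Torrent S5, per the labels' protocols. The authors deposited whole-number read counts for 1966 mature microRNAs in 5 tables, 1 per pair of groups. The submitters' processing notes name cutadapt 2.3, BWA, Subread, featureCounts and limma 3.54.1 with GRCm38, without order or role. The number of sequenced reads and the use of strand are not given in the sources used here. In the 11 libraries 562 microRNAs had no count, and other columns of per-sample values numbered 0.

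Counts were fitted with edgeR 4.0.16 in R 4.3.3: filterByExpr by group (523 of 1966 kept), TMM scaling, estimateDisp, robust glmQLFit and the quasi-likelihood F test. Adjustment followed Benjamini-Hochberg over all microRNAs tested, with calls at an adjusted p below 0.05. SE was derived from the F statistic. CPM used TMM-scaled sizes of the 11 libraries, except marker sums and group levels, which used all 31. Rate ratios have exact 95% intervals that cover counting error only. The script was tested on simulated counts. Alternatives used DESeq2 1.42.0, limma-voom in limma 3.58.1, other filters and scalings, a joint fit, blocks and omitted libraries.

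Replicate numbers did not pair the groups: same-numbered libraries deviated together at r of 0.604, -0.377, -0.360, 0.394 and 0.217 for numbers 1 to 5. The members and lists were chosen with earlier results of these data known, as was the split of KO-water by table. Named microRNAs were all those called against all 6 KO-water libraries, the 2 most abundant and all called members of each list, a fixed set, the 12 largest called changes each way against each water set, the 5 most abundant, the 8 most variable per group at 100 CPM or more, and the 5 most like miR-132-3p. Sequences and loci were taken from RefSeq without chromosome 18. Of 523 tested microRNAs 454 had a sequence in this selection, as had 19 of the 21 called, which carry 18 seeds. Host genes come from the GENCODE annotation of GRCm38.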

Additional observations from a re-analysis of the deposited data

Results flagged for a closer look

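Of 50 named microRNAs checked in KO-exercise and in KO-water, 9 had 1 library set apart from the rest of its group by a gap large against the group's whole range. For normally distributed values chance alone would flag about 1 in 20 groups, and 100 were checked. CPM values need not be normal, and 1 count where all others have 0 is always flagged, so that rate may not hold here. In KO-exercise, miR-182-5p, a sensory and epithelial microRNA, was at 97.7 CPM in KO-exercise 2 against 3.21 to 9.56 in the others. MiR-219a-5p was at 637 CPM in KO-exercise 1 against 178.5 to 283, miR-669a-3p at 143.8 CPM in KO-exercise 4 against 81.9 to 96.96, and miR-331-3p at 23.1 CPM in KO-exercise 5 against 10.6 to 12.6. The call of miR-669a-3p was lost in 6 of 11 omissions of 1 library, that of KO-exercise 4 among them. In KO-water 5 miR-212-3p was at 1562 CPM against 940 to 1121 in the others. The same library was highest for both arms of the Htr2c-intron miR-1298, with miR-1298-5p at 995.6 CPM against 6.43 to 166 and miR-1298-3p at 32.5 CPM against 8.15 to 12.5. MiR-126b-5p in KO-water 3 (0.505 CPM) and miR-196b-5p in KO-water 1 (0.377 CPM) each rest on 1 count where the other KO-water libraries had 0.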

How the results depend on the processing

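Against all 6 KO-water libraries, the 21 calls became 38 with DESeq2, 40 in a joint fit of all 6 groups, 11 without a filter on low counts, 118 and 177 with set A or set B alone, 3 and 1 within code letter G or H, and 70 without KO-exercise 4 and set B (chosen after seeing the data). Leaving out 1 library at a time gave 13 (without KO-exercise 4) to 29. With the replicate number as a block 7 were called. Only numbers 1 and 5 matched their own number best, so the numbers were not taken to pair libraries. In the 11 omissions of 1 library no call was lost for miR-126b-5p, miR-122b-3p, miR-196b-5p, miR-3059-5p, miR-146a-5p, let-7d-3p, miR-99a-5p, miR-100-5p, miR-93-3p and miR-335-5p. Most often lost were miR-142a-3p (10 of 11), miR-873a-5p (8) and miR-130a-3p (7). The cause of these shifts was not tested.

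Single omissions gave 43 to 184 calls against set A (43, 60 and 77 without KO-water 1, 2 and 5, 70 without KO-exercise 4, 184 without KO-exercise 1) and 95 to 216 against set B (95 and 111 without KO-water 4 and 6). The interaction gave 252 calls with set B alone and 0 in all other settings, omissions of 1 KO-exercise or KO-water library included. Signs were checked across settings only for the called microRNAs and those fixed from earlier results. Among them, signs opposite to those of the pooled fit were found for miR-342-3p (1.28 with set A, 1.23 also without KO-exercise 4), miR-218-5p (0.75 and 0.71), miR-1298-5p (2.77 with set B) and miR-219a-5p (2.45 with set B). None of these was called in the pooled fit. Outside that check, miR-150-5p was at -0.04 in the pooled fit and rose against set A. Depth limits microRNAs such as miR-196b-5p, which had 10 to 34 counts per KO-exercise library.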
